A study of Mus musculus with 8 samples.

Results

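The interleukins and interleukin receptors were taken as every gene whose symbol begins with Il followed by a digit, which gave 48 of the 19460 genes in the deposited table. No expression value entered that rule, but this group of genes was chosen with earlier results of these data known. RNA came from cultured mouse bone marrow stromal cells, a mixed adherent population with osteoblast precursors in it, on a C57BL/6 background. Wild-type cultures (4 libraries) were compared with Lgr6-null cultures (4 libraries), the titles' name for cells with 2 copies of an Lgr6-GFP-ires-CreERT2 allele, which carries a GFP reporter and a tamoxifen-inducible Cre at Lgr6. Both genotypes were kept for 10 days in osteogenic medium (10% FBS, 4 mM β-glycerophosphate and 50 µg/mL ascorbic acid). The age and sex of the mice are not among the labels. Nor do the labels say if the 4 libraries stand for 4 animals or 4 cultures, so each p-value is set by the spread from library to library, which may be technical. No sorting step is given.

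Interleukins are secreted cytokines that act through cell-surface receptors built from a chain specific to the ligand and a chain shared among several receptors. Most of these receptors lack enzymatic activity and signal through Janus kinases and STAT factors, whereas receptors of the IL-1 and IL-17 families signal through adaptor proteins towards NF-kB. In bone marrow, stromal cells supply interleukins to blood cell precursors, and several interleukins act on osteoblasts or on the macrophage lineage from which osteoclasts form.

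The promoters of Il33, Il6 and Il7r are shown because Il33 and Il7r had the largest rise and the largest fall among the called interleukin genes, and because Il6 is a well-known target of NF-kB. Each sequence is the 250 bases before an annotated start, taken from RefSeq on build GRCm38.p6 and written 5′ to 3′ on the strand of the gene. The strand was checked on each window together with the bases that follow its start, which are not printed. Each shared a run of 20 bases with at least 1 GENCODE transcript of its gene in this orientation and with 0 when reversed. The runs need not lie in the letters printed. For Il7r the run lay in an upstream exon of a non-coding transcript. Il33 has starts at both of the positions shown. Capitals mark TATA-type TATAAA in both Il33 windows, the AP-1 motif TGANTCA and the NF-kB motif in the Il6 window, and the STAT motif TTCNNNGAA in the Il7r window.
Il33, start 1, chr19:29924863-29925112, plus strand: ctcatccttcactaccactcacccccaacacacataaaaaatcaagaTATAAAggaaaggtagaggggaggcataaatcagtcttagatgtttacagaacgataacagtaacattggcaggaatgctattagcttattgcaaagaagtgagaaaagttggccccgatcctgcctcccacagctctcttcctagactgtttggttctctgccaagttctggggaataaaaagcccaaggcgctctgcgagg
Il33, start 2, chr19:29945540-29945789, plus strand: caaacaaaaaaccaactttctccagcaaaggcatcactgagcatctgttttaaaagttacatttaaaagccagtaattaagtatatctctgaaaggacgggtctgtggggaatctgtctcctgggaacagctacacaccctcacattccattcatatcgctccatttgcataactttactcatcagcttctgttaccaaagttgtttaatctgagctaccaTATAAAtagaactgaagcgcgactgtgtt
Il6, chr5:30012864-30013113, plus strand: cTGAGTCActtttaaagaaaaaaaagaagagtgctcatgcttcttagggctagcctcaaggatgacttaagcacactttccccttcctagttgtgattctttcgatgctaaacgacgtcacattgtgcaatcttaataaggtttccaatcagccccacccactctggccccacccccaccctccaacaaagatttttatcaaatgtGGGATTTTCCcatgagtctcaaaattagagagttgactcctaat
Il7r, chr15:9529877-9530126, minus strand: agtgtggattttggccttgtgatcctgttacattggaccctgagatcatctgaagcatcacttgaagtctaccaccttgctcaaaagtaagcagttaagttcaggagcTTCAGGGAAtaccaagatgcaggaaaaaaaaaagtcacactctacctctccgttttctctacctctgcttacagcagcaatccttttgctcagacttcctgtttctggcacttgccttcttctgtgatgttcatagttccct

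The capitals begin 203 bases before the first Il33 start and 29 bases before the second, 249 (AP-1) and 44 (NF-kB) bases before the Il6 start, and 142 bases before the Il7r start. Windows were on hand for 37 of the 48 members, 49 windows in all, and motifs were searched on both strands. The AP-1 motif was in 9 of the 49 member windows (18.4%) and in 6.75% of all 32851 windows. The other shares were 6.12% of member windows and 7.25% of all windows for the NF-kB motif, 6.12% and 7.02% for the STAT motif, 16.3% and 12.4% for TATAAA, and 0 member windows and 1.55% of all windows for the CRE motif TGACGTCA. Of the genes called below, Il16 held the NF-kB motif, Il16 and Il11 held AP-1, Il7r held STAT, and Il33 and Il1b held TATAAA. These are matches of letters, with no measurement of factor binding.

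Libraries held 7629968 to 21135173 reads in genes. The allele was visible in the data: Lgr6 averaged 1287 ± 303 normalized counts in wild-type against 76.2 ± 19.2 in Lgr6-null (SD, n = 4 each; log2 fold change -4.06, SE 0.20, limma adjusted p 2.73e-06). A normalized count is the authors' read count divided by a size factor for each library. Of 14294 tested genes, 1855 were called higher and 1821 lower in Lgr6-null by limma at a Benjamini-Hochberg adjusted p under 0.05, with a median log2 fold change of 0.00; with libraries scaled to the same total the split was 2886 higher and 1281 lower, and the median 0.09. All 8 osteoblast markers examined were called lower, with a median log2 fold change of -2.34, and of 8 stromal markers 3 were called higher and 2 lower. Of 18 macrophage markers, 11 were called higher and 0 lower, with a median of 0.56, and their summed level was 275187 to 323625 normalized counts in wild-type and 416050 to 628068 in Lgr6-null. In such bulk RNA a change in the number of cells of a type and a change in RNA per cell cannot be told apart.

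Interleukin genes were more often higher than lower in Lgr6-null cultures. Of the 48 members, 40 passed the filter on low values (at least 10 normalized counts in at least 4 libraries) and 8 did not. Among the 40 tested, 12 were called higher (30.0%, against 13.0% of all tested genes), 3 were called lower (7.50%, against 12.7%) and 25 were not called; 37.5% were called in either direction, against 25.7%. The median log2 fold change of the tested members was 0.34. Il33 passed the filter only through its Lgr6-null libraries; without it 11 of 39 were called higher and the median was 0.31. The genes that rose were Il33, Il1b, Il1rl1, Il21r, Il17rd, Il6ra, Il10ra, Il4ra, Il17ra, Il4, Il16 and Il10rb, and those that fell were Il7r, Il12rb1 and Il11. Of the 12 that rose, 5 had mean levels at least 2 times the wild-type mean. The genotypes did not overlap for 11 members in the higher and 3 in the lower direction (35.0% of the tested members, against 29.1% of all tested genes). Of 26 tested receptor genes 8 rose and 2 fell, and of 12 tested ligands or binding proteins 3 rose and 1 fell. The members and the lists of related genes below were chosen with earlier results known. Their shares of called genes are therefore descriptions only.

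**Figure D1:**
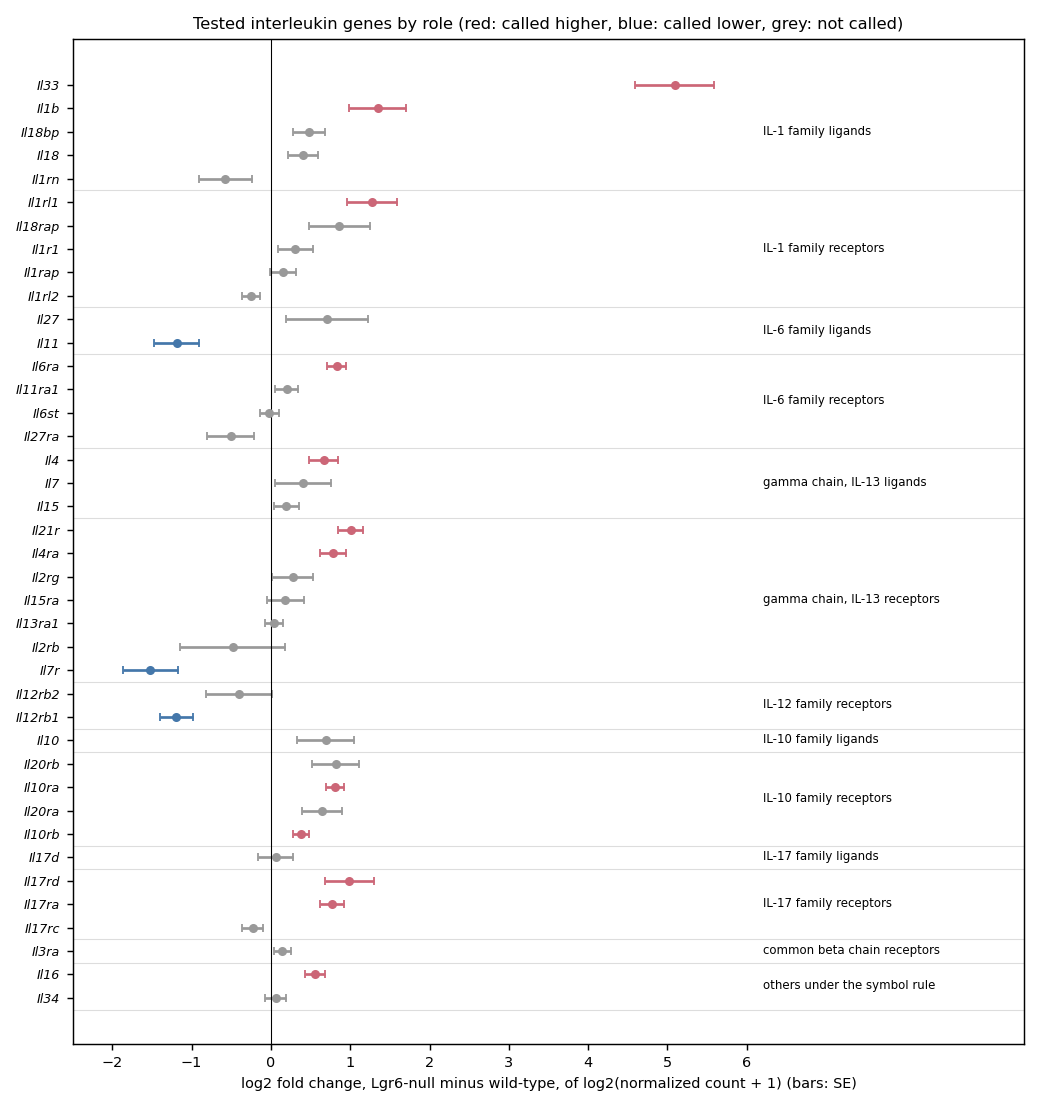
Log2 fold change (Lgr6-null minus wild-type, on log2(normalized count + 1)) of each of the 40 tested interleukin genes, grouped by role, with bars for the SE. Red points were called higher (12), blue points lower (3) and grey points were not called (25); Il33 lies farthest to the right at 5.09 and Il7r farthest to the left at -1.52.

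Values of single members are given below as normalized counts in the order of the numbers in the column names, which are M0 to M3 for wild-type and M0, M2, M3, M4 in Lgr6-null. The IL-1 family held the largest rise among called members. Il33 (ENSMUSG00000024810, chromosome 19), a nuclear alarmin released from damaged cells, was at 1.86, 0, 0 and 0 in wild-type and at 66.0, 20.9, 55.0 and 45.8 in Lgr6-null. It was thus detected in all 4 Lgr6-null libraries and in 1 wild-type library. In reads, the wild-type libraries held 2 in all, both in M0, and the Lgr6-null libraries held 79, 25, 74 and 24, or 202 in all. The ratio of read rates was 96.5, with an exact 95% binomial interval of 26.4 to 803 that covers counting error only. The log2 fold change was 5.09 (SE 0.50, adjusted p 0.000114), a value that depends on the pseudocount of 1 at such low wild-type levels. Il33 entered the fit only through its Lgr6-null libraries, so this adjusted p is given as a description beside the reads.

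Il1b (chromosome 2), the secreted inflammatory cytokine of activated macrophages, was at 57.5, 19.9, 15.7 and 32.9 in wild-type and at 85.2, 79.5, 75.1 and 53.5 in Lgr6-null. Wild-type M0 lay above Lgr6-null M4, so the genotypes overlapped. Il1b rose by a log2 fold change of 1.34 (SE 0.36, adjusted p 0.0229), from 31.5 ± 18.8 to 73.3 ± 13.9. The call was lost when wild-type M1 or M2 or Lgr6-null M0 or M2 was left out, at adjusted p 0.0502 to 0.0671; over 16 alternatives the adjusted p ran from 0.00352 to 0.0671.

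The other tested IL-1 ligands and binding proteins were not called. Il1rn, the antagonist that occupies the IL-1 receptor without signaling, averaged 1392 ± 335 in wild-type against 998 ± 441 in Lgr6-null (log2 fold change -0.57, adjusted p 0.247). Il18bp, a secreted protein that sequesters IL-18, averaged 226 ± 70.5 and 309.8 ± 52.7 (0.48, adjusted p 0.105), and without wild-type M0 it was called higher (0.68, adjusted p 0.0102). Il18 had means of 82.8 and 112 (0.40, adjusted p 0.142). Il1a, the neighbour of Il1b on chromosome 2, had 32 wild-type and 46 Lgr6-null reads in all and was below the filter (two-sided exact permutation p 0.943).

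Of the IL-1 family receptors, Il1rl1 was the one called. Il1rl1 (ENSMUSG00000026069, chromosome 1), which encodes ST2, the receptor chain specific to IL-33, was at 343, 108, 178 and 127 in wild-type and at 381, 399, 353 and 540.3 in Lgr6-null. Every Lgr6-null library lay above every wild-type library, although wild-type M0 lay just below the lowest of them. Il1rl1 rose by 1.27 on the log2 scale (SE 0.32, adjusted p 0.0155), from 189 ± 107 to 418 ± 83.5. Ligand and specific receptor chain of IL-33 were therefore both higher in Lgr6-null. The shared chain Il1rap, which joins the receptors for IL-1, IL-33 and IL-36, averaged 155 ± 17.5 and 174 ± 37.4 and was not called (0.15, adjusted p 0.545).

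Il1rl1 stands on chromosome 1 in an unbroken run of protein-coding genes, Il1r2, Il1r1, Il1rl2 and Il1rl1, in the RefSeq annotation of GRCm38.p6. Il1r1, the signaling IL-1 receptor, averaged 189 ± 60.4 in wild-type against 227 ± 37.1 in Lgr6-null (0.31, adjusted p 0.347). Il1rl2, the IL-36 receptor chain, averaged 266 ± 24.6 and 225 ± 31.0 (-0.25, adjusted p 0.153). Il1r2, a decoy receptor, held 14 wild-type and 6 Lgr6-null reads and was below the filter. Il18rap, the accessory chain of the IL-18 receptor, had means of 24.1 and 40.7 (0.86, adjusted p 0.136), and without wild-type M0 it was called higher (1.18, adjusted p 0.0396).

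Among 20 tested genes of IL-1 receptor signaling and cytokine processing, 6 were called higher (30.0%, against 13.0% of all tested genes) and 2 lower (10.0%, against 12.7%), with a median log2 fold change of 0.18. Those that rose were Nfkb1 (0.39), which encodes an NF-kB subunit, Nlrp3 (0.64) and Pycard (0.60) of the inflammasome that processes IL-1β, Irak2 (0.60), Irak3 (0.48) and the NF-kB cofactor Nfkbiz (0.51). The genes that fell were Traf3ip2 (-0.32), the adaptor of IL-17 receptors, and Tab1 (-0.26). Myd88, the adaptor of IL-1 receptors, and Casp1, the protease that cleaves IL-1β, were not called, at log2 fold changes of 0.03 and 0.27.

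In the IL-6 family, one ligand fell and one receptor chain rose. Il11 (chromosome 7), a cytokine that promotes bone formation in mice, was at 98.3, 36.9, 46.2 and 64.6 in wild-type and at 21.7, 26.0, 24.5 and 26.7 in Lgr6-null. The genotypes did not overlap, and the wild-type libraries were the more scattered. Il11 fell by 1.19 on the log2 scale (SE 0.29, adjusted p 0.0136), from 61.5 ± 27.1 to 24.7 ± 2.21.

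Il6 (ENSMUSG00000025746, chromosome 5), a pleiotropic inflammatory cytokine that also promotes osteoclast formation, was low throughout. It was at 0.928, 0.947, 3.48 and 1.27 in wild-type and at 6.68, 3.35, 18.6 and 3.82 in Lgr6-null, 7 against 39 reads in all. Lgr6-null M2 lay below wild-type M2, so the genotypes overlapped. The mean difference on the log2(normalized count + 1) scale was 1.59 (two-sided exact permutation p 0.0571, where 0.0286 is the smallest p that 4 against 4 libraries allow). With libraries scaled to the same total the difference was 1.66 and the exact p 0.0286; over all alternatives the exact p ran from 0.0286 to 0.1143. The remaining ligand, Il27, had means of 11.5 and 17.8 (0.70, adjusted p 0.360).

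Il6ra (chromosome 3), the chain that binds IL-6, was at 537, 684, 751 and 814 in wild-type and at 1222, 1173, 1343 and 1163 in Lgr6-null. The wild-type libraries were the more scattered, and all Lgr6-null values lay above all wild-type values. Il6ra rose by 0.83 (SE 0.12, adjusted p 0.000991), from 696 ± 119 to 1225 ± 82.8, a ratio of means of 1.76. Il6st, the signal-transducing chain gp130 shared across the family, averaged 3782 ± 277 and 3774 ± 653 (-0.02, adjusted p 0.935), and the sign of this near-zero value changed with the scaling. Il11ra1, the IL-11 receptor chain, averaged 435 ± 78.6 and 497 ± 65.5 (0.20, adjusted p 0.361). Its near-identical copy Il11ra2 had no row, and reads that match both may have been left out in counting. Il27ra, the specific chain of the IL-27 receptor, had means of 17.2 and 12.2 (-0.51, adjusted p 0.241).

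Genes with other symbols that belong to the same receptor families were followed as a list of 17, all tested, of which 5 were called higher (29.4%, against 13.0% of all tested genes) and 1 lower (5.88%, against 12.7%), with 0.39 as the median log2 fold change. The one that fell was Lifr, the LIF receptor chain that pairs with gp130, which averaged 10784 ± 1656 in wild-type against 3672 ± 1403 in Lgr6-null (-1.63, adjusted p 0.00178). The gp130 ligands Lif (0.65) and Osm (0.66) rose, as did Csf1r (0.70), the receptor of IL-34 and CSF1, Ebi3 (0.50), a subunit of IL-27, and Csf2rb (0.47), the common beta chain. The Osm call held in 2 of the 8 fits that leave out a library, with adjusted p from 0.0102 to 0.0982.

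The common gamma chain family, with the IL-13 receptors, held the most abundant receptor that rose and the largest fall among called members. Il4ra and Il21r, adjacent protein-coding genes on chromosome 7, both rose. Il4ra, the IL-4Rα chain used by IL-4 and IL-13, was at 4036, 2868, 3189 and 3500.2 in wild-type and at 7004, 4599, 7226 and 4851 in Lgr6-null. Its log2 fold change was 0.78 (SE 0.16, adjusted p 0.00737), from 3398 ± 497 to 5920.1 ± 1386. Lgr6-null M0 and M3 lay well above M2 and M4, and all were above the wild-type libraries. Il21r, the IL-21 receptor chain, was at 790.2, 646, 692 and 899 in wild-type and at 1653, 1269, 1955 and 1262 in Lgr6-null. Its log2 fold change was 1.01 (SE 0.15, adjusted p 0.00143), from 757 ± 112 to 1535 ± 335, with the same pair of Lgr6-null libraries on top and no overlap.

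Il7r (ENSMUSG00000003882, chromosome 15), the IL-7 receptor chain that is also part of the TSLP receptor, fell. It was at 162, 348, 375 and 167 in wild-type and at 81.8, 149, 68.4 and 61.1 in Lgr6-null. The highest Lgr6-null library, M2, lay just below the lowest wild-type libraries, M0 and M3, so the genotypes did not overlap. The fall was from 263 ± 114 to 90.1 ± 40.2, a log2 fold change of -1.52 (SE 0.35, adjusted p 0.0114) and a wild-type mean 2.92 times the Lgr6-null mean. Its ligand Il7 had means of 46.7 and 67.6 (0.41, adjusted p 0.452).

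Il4 (chromosome 11), the cytokine of type 2 immunity, was low but rose. It was at 21.3, 24.6, 26.1 and 21.5 in wild-type and at 32.6, 36.0, 38.7 and 43.9 in Lgr6-null, without overlap. The log2 fold change was 0.67 (SE 0.19, adjusted p 0.0264), from 23.4 ± 2.36 to 37.8 ± 4.78. Its call was lost when wild-type M0, M1 or M3 or Lgr6-null M3 or M4 was left out and in DESeq2, at adjusted p 0.0505 to 0.0630; over 15 alternatives the adjusted p ran from 0.0151 to 0.163.

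The shared chain Il2rg, the common gamma chain itself, averaged 436 ± 125 in wild-type against 540.1 ± 192 in Lgr6-null (0.27, adjusted p 0.492); 30.5% of its exon bases overlap the gene model Gm20489 on the same strand, so its reads may be divided or left out in counting. Il13ra1, which pairs with Il4ra in the type II receptor for IL-4 and IL-13, averaged 875 ± 125 and 898 ± 84.4 (0.04, adjusted p 0.818). Il15, a cytokine for natural killer and memory T cells, averaged 112 ± 11.2 and 129 ± 25.1 (0.20, adjusted p 0.388). Il15ra (0.18) and Il2rb (-0.48), the IL-15 receptor chains besides Il2rg, were not called either. Il13ra2, a decoy receptor for IL-13, held 13 and 33 reads and was below the filter (exact permutation p 0.629).

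In the IL-12 family 1 of the 2 tested receptor chains fell. Il12rb1 (chromosome 8), the chain shared by the receptors for IL-12 and IL-23, was at 73.3, 47.3, 71.4 and 79.8 in wild-type and at 33.4, 31.0, 28.2 and 22.9 in Lgr6-null. No Lgr6-null library reached the lowest wild-type library. Il12rb1 fell by 1.19 on the log2 scale (SE 0.21, adjusted p 0.00307), from 67.9 ± 14.2 to 28.9 ± 4.51. Its partner Il12rb2 had means of 13.2 and 9.84 and was not called (-0.40, adjusted p 0.536); 40.0% of its exon bases overlap Serbp1 on the opposite strand, a gene at a mean of 4989, and the strand setting of the counting is not given in the sources used here.

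Both IL-12 subunits were below the filter. Il12a, the p35 subunit, was at 8.35, 18.9, 4.36 and 1.27 in wild-type and at 0.835, 0.837, 0 and 1.91 in Lgr6-null, 35 against 3 reads. The genotypes overlapped only through wild-type M3 and Lgr6-null M4. The ratio of read rates was 0.0819 (exact 95% binomial interval 0.0161 to 0.260), and the exact permutation p over libraries was 0.0571. Il12b, the p40 subunit, held 3 and 10 reads (ratio 3.19, interval 0.820 to 18.0; exact permutation p 0.486). These low members were singled out after their values were seen.

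**Figure D2:**
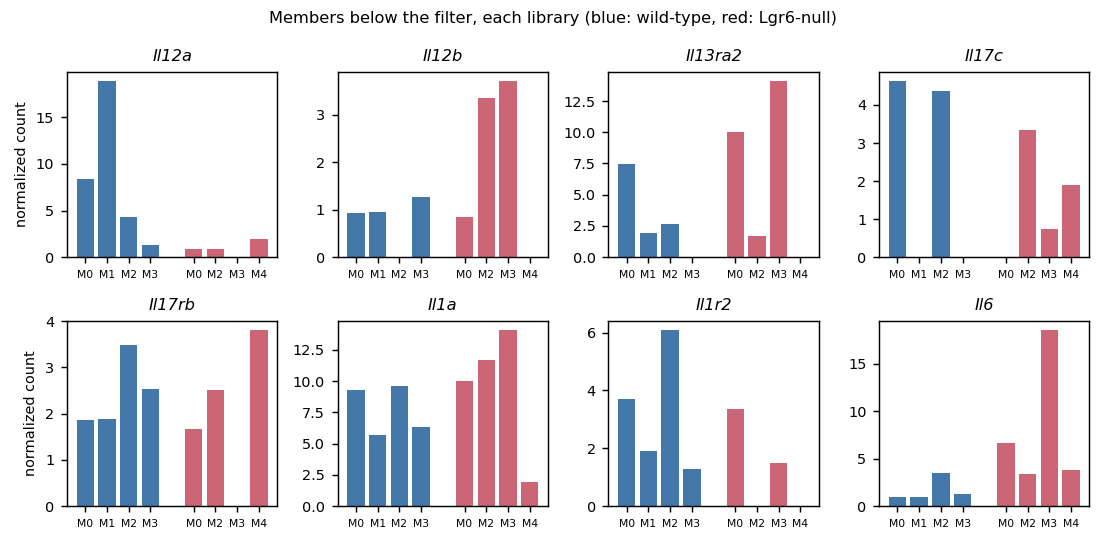
Normalized counts of the 8 interleukin genes below the filter in each library, blue bars for wild-type and red bars for Lgr6-null, each panel with its own axis from 0. Il6 reaches 18.6 in Lgr6-null M3 and Il12a reaches 18.9 in wild-type M1, and the other libraries of these genes are lower.

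Both chains of the IL-10 receptor rose. Il10ra (chromosome 9), the ligand-binding chain, was at 1191, 968, 1238 and 1391 in wild-type and at 1962, 2058, 2421 and 1892 in Lgr6-null. Its log2 fold change was 0.80 (SE 0.12, adjusted p 0.000976), from 1197 ± 175 to 2083 ± 235, and the genotypes lay far apart. Il10rb (chromosome 16), the accessory chain that also serves other cytokines of this family, was at 1295, 1470.4, 1578 and 1381 in wild-type and at 1659, 1738, 2191 and 1879 in Lgr6-null. It rose less, by 0.38 (SE 0.10, adjusted p 0.0170), from 1431 ± 122 to 1866 ± 234, again without overlap, and 14.9% of its exon bases overlap Gm21970 on the same strand. The ligand Il10, an anti-inflammatory cytokine, had means of 8.61 and 14.7 (0.69, adjusted p 0.192).

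The IL-20 receptor chains were low. Il20rb was at 18.6, 12.3, 19.2 and 12.7 in wild-type and at 44.3, 29.3, 20.1 and 22.9 in Lgr6-null. Although the genotypes did not overlap, it was not called (0.82, SE 0.30, adjusted p 0.0701); scaled to the same total it was called, at adjusted p 0.0460, within a range of 0.046 to 0.181 over its alternatives. Its partner Il20ra had means of 29.2 and 47.7 (0.64, adjusted p 0.0889).

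In the IL-17 family 2 of 3 tested receptor genes rose. Il17ra (chromosome 6), the chain shared by IL-17 receptors, was at 1139, 952, 924 and 1129 in wild-type and at 1993, 1448, 2260.5 and 1470.1 in Lgr6-null. Its log2 fold change was 0.77 (SE 0.15, adjusted p 0.00463), from 1036 ± 114 to 1793 ± 401, without overlap. Il17rd (chromosome 14), a relative also known as Sef that dampens fibroblast growth factor signaling, was at 169, 98.5, 118 and 106 in wild-type and at 215, 350.0, 126 and 346 in Lgr6-null. Lgr6-null M3 lay within the wild-type range. Il17rd rose by 0.99 (SE 0.31, adjusted p 0.0437), from 123 ± 31.7 to 259 ± 108, but the call held in 2 of the 8 fits that leave out a library. It was lost without wild-type M1, M2 or M3 or Lgr6-null M0, M2 or M4, at adjusted p 0.0764 to 0.111; over 16 alternatives the adjusted p ran from 0.00381 to 0.150.

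Il17rc, the partner of Il17ra for IL-17A, averaged 295 ± 25.2 and 255 ± 49.5 (-0.23, adjusted p 0.253). The ligand Il17d had means of 33.1 and 35.3 (0.06, adjusted p 0.881). Il17c held 10 and 6 reads and Il17rb, the IL-25 receptor chain, held 10 and 7 reads in wild-type and Lgr6-null, both below the filter.

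The remaining members stand outside these families. Il16 (chromosome 7), whose precursor is cleaved to a chemoattractant for CD4-bearing cells, was at 253, 204, 240.4 and 266 in wild-type and at 306, 319.9, 398 and 399 in Lgr6-null. The genotypes did not overlap, and the log2 fold change was 0.56 (SE 0.12, adjusted p 0.00922), from 241 ± 26.9 to 356 ± 50.0. On the opposite strand Stard5, at a mean of 401, overlaps 15.3% of the exon bases of Il16. Il34, the second ligand of the CSF1 receptor, averaged 202 ± 26.2 and 210.2 ± 26.2 (0.06, adjusted p 0.784). Il3ra, the IL-3 receptor chain, averaged 462 ± 65.9 and 507 ± 39.4 (0.14, adjusted p 0.382).

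**Figure D3:**
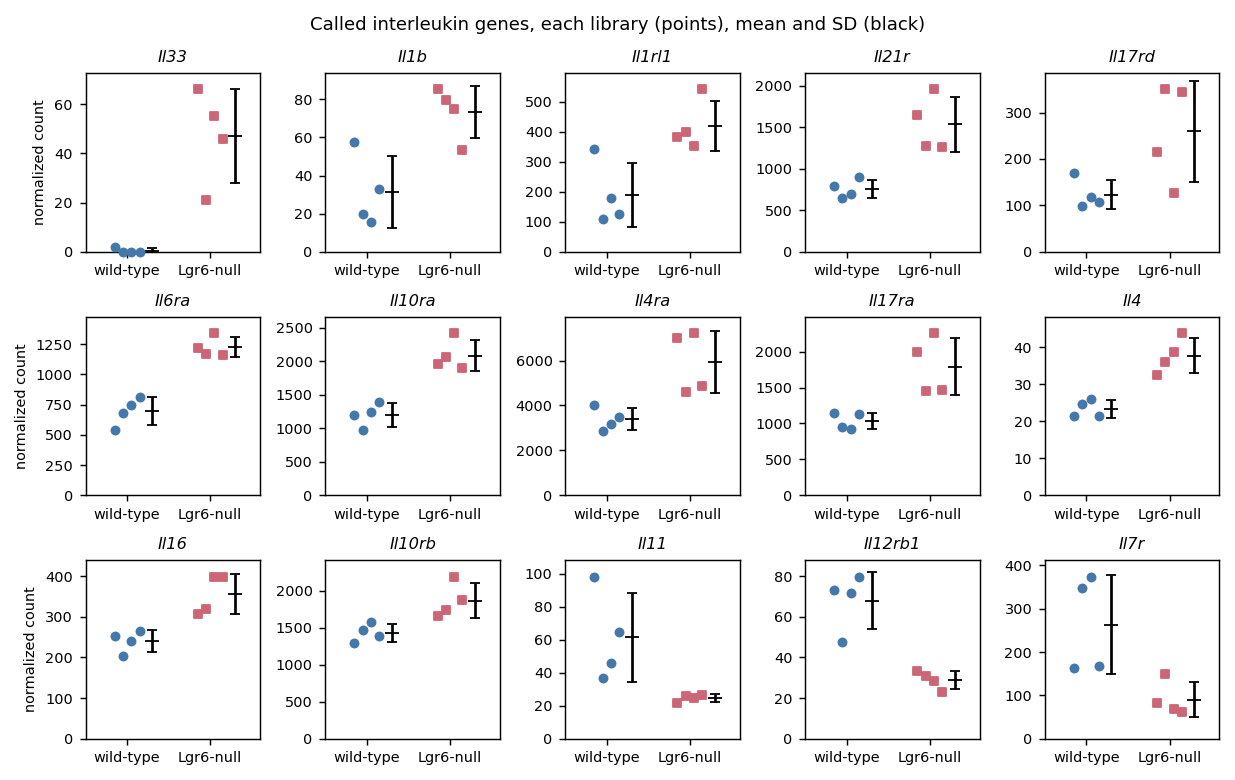
Normalized counts of the 15 called interleukin genes, each library as a point (blue circles, wild-type; red squares, Lgr6-null) with the mean and SD of 4 libraries in black, each panel with its own axis from 0. For 10 of the 12 genes that rose, the Lgr6-null points lie above the wild-type points, the exceptions being Il1b and Il17rd; for the 3 that fell they lie below.

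The kinases, STAT factors and feedback inhibitors downstream of these receptors were called about as often as genes in general. Of 22 tested JAK, STAT and SOCS genes with their regulators, 4 were called higher and 2 lower (27.3% in either direction, against 25.7% of all tested genes), with a median log2 fold change of 0.10. Jak2 fell from 2148 ± 35.2 to 1525 ± 231 (-0.51, adjusted p 0.00539), and Socs1, a feedback inhibitor of Janus kinases, fell from 199 ± 24.3 to 121 ± 25.5 (-0.73, adjusted p 0.00830). Those that rose were Ptpn6 (0.55), the phosphatase SHP-1, Socs6 (0.44), Tyk2 (0.26) and Socs5 (0.25). When single libraries were left out the Ptpn6 call held in 2 of 8 fits and the Socs5 call in 3 of 8, with adjusted p of 0.0097 to 0.129 and 0.0279 to 0.0960. Stat3 (0.02), Stat6 (0.06) and Socs3 (-0.01) were not called. Stat4, also on this list, was below the filter and not among the tested genes. It held 6 wild-type and 53 Lgr6-null reads, with means of 1.39 and 12.6 normalized counts. Each Lgr6-null library lay above each wild-type library (mean log2 difference 2.56, two-sided exact permutation p 0.0286). Stat4 was singled out after its values were seen.

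Levels were compared between members only per kilobase of annotated exon. By this measure Il4ra was the highest interleukin gene in both genotypes, at 566 normalized counts per kb in wild-type and 986 in Lgr6-null. In wild-type Il10rb (376), Il10ra (342) and Il6st (341) came next and lay close together, followed by Il1rn (251), Il13ra1 (236), Il21r (228) and Il2rg (183). In Lgr6-null the order after Il4ra was Il10ra (596), Il10rb (490.2), Il21r (462) and Il6st (340.0), so Il21r moved from rank 7 to rank 4 and Il1rn from rank 5 to rank 9. The receptor chains thus led the order, and the antagonist Il1rn was the highest ligand-type gene in both genotypes.

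Because a receptor needs its specific and its shared chain, the log2 ratio of the 2 chains was taken in each library for 19 textbook pairs, as a description without a test. In 6 pairs the ratio was higher in every Lgr6-null library, in 2 it was lower, and in 11 the genotypes overlapped. Among single tested genes 29.1% did not overlap, and no such share was taken for ratios of other gene pairs. Chains such as Il6st, Il2rg and Il4ra recur among the pairs, so the pairs are not separate observations. In bulk RNA of a mixed culture the 2 chains may come from different cells, so a ratio need not describe a receptor on any cell. Apart from Osmr relative to Il6st, each pair without overlap set a called chain against a chain that was not called. Those ratios thus largely restate the single calls. For the IL-6 receptor, Il6ra relative to Il6st lay between -2.70 and -2.34 in wild-type and between -1.84 and -1.10 in Lgr6-null. For IL-17, Il17ra relative to Il17rc lay between 1.50 and 2.04 and between 2.19 and 3.31. Il4ra was higher relative to both of its partners, by a mean of 0.51 against Il2rg and 0.74 against Il13ra1, and Il21r was higher relative to Il2rg by 0.73. Osmr relative to Il6st was higher by 0.32.

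The pairs that went down without overlap were Lifr relative to Il6st and Il7r relative to Crlf2, the TSLP-specific chain. Lifr relative to Il6st lay between 1.24 and 1.83 in wild-type and between -0.59 and 0.35 in Lgr6-null. For Il7r relative to Crlf2 the mean difference was -1.57. Crlf2 itself averaged 566 ± 40.1 and 587 ± 70.2. The IL-7 receptor pair, Il7r relative to Il2rg, had a mean difference of -1.79, but the genotypes overlapped. It lay between -1.93 and 0.03 in wild-type and between -3.40 and -1.42 in Lgr6-null. The IL-33 receptor pair, Il1rl1 relative to Il1rap, had a mean difference of 1.12, but wild-type M0 overlapped the Lgr6-null range. For the IL-10 receptor the mean difference was 0.43, and the genotypes touched.

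**Figure D4:**
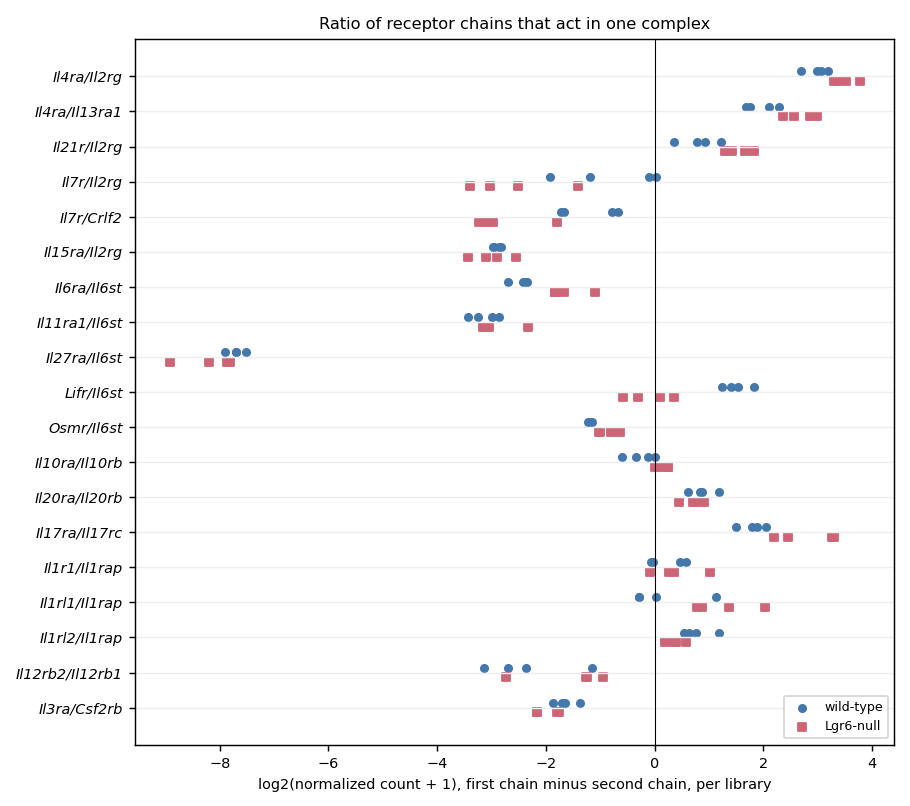
Log2 ratio of the chains of 19 receptor pairs in each library (first chain minus second, on log2(normalized count + 1)), blue circles for wild-type and red squares for Lgr6-null. Lgr6-null points lie to the right of all wild-type points in 6 pairs, among them Il17ra/Il17rc and Il6ra/Il6st, and to the left in 2, Il7r/Crlf2 and Lifr/Il6st.

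Macrophage markers moved in the same direction as most called members, so member levels were also expressed relative to the average log2 level over these 18 genes, which was 12.36 to 12.56 in wild-type and 12.76 to 13.35 in Lgr6-null. On that scale 2 of the 12 genes that rose, Il33 and Il21r, were higher in every Lgr6-null library than in every wild-type library, and the other 10 overlapped. Il21r lay between -3.13 and -2.67 in wild-type and between -2.54 and -2.38 in Lgr6-null. The mean difference was above 0 for 11 of the 12, with Il16 at 0.0089, the exception being Il10rb at -0.17. These 12 genes were picked by their calls in the same libraries, so that count is only a description. The marker mean was 0.55 higher in Lgr6-null, so the subtraction lowers the difference of every gene by that amount. Over all 14294 tested genes 1.64% were then higher and 55.8% lower without overlap, and of the 40 tested members 2 (5.00%) were higher and 10 (25.0%) lower. The part of macrophage number or state in the called differences was not tested.

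**Figure D5:**
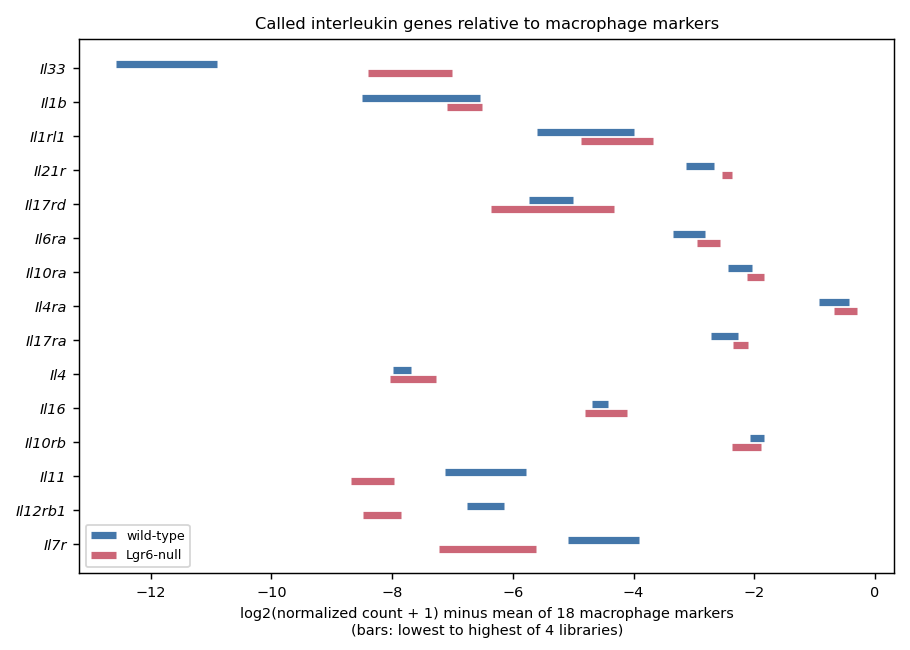
Range over 4 libraries of log2(normalized count + 1) minus the mean of 18 macrophage markers for the 15 called interleukin genes, blue for wild-type and red for Lgr6-null. The bars are apart for Il33, Il21r, Il7r, Il12rb1 and Il11, and overlap for the other 10.

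Markers of other cells that make or respond to interleukins were also summed. Of the T cell markers Cd3d, Cd3e, Cd3g, Cd8a and Cd8b1 had no row in the table, and the summed level of the 3 that had one was 176 to 313 in wild-type and 158 to 319 in Lgr6-null, most of it Cd4 (means of 232 and 219). Of 8 mast cell and basophil markers 3 were in the table, with sums of 40.5 to 94.7 and 25.9 to 38.2. Kit among them had 169 wild-type and 14 Lgr6-null reads (-3.46 on the log2 scale), having passed the filter only through its wild-type libraries. Mcpt8 was not called (100 and 102 reads, log2 fold change 0.14), and Hdc, below the filter, held 9 and 8 reads. Sums were 17.6 to 28.4 and 42.6 to 59.2 for 3 of 6 B cell markers. Cd79b among them rose, while Cd79a and Vpreb1, below the filter, held 10 and 5 and 8 and 9 reads. For 6 of 8 neutrophil markers the sums were 24.4 to 60.8 and 36.3 to 214. The 214 was Lgr6-null M3 alone, with M0, M2 and M4 at 84.3, 86.2 and 36.3. Only S100a8 among them was tested, and it was not called (1.02, limma adjusted p 0.0877). For 3 of 6 innate lymphoid and natural killer markers the sums were 511 to 617 and 343 to 565. Nearly all of it was Rora (means of 578 and 499), with Gata3 at means of 1.35 and 0.999 and Nkg7 detected in 1 library. For the 6 endothelial markers the sums were 145 to 178 and 83.5 to 132, without overlap. Kdr was called lower (-1.30), with means of 87.4 and 35.9. Pecam1 (-0.41), Cdh5 (-0.63) and Vwf (0.55) were not called. Tek and Emcn, below the filter, held 7 and 17 and 12 and 3 reads. For the 6 adipocyte markers the sums were 3869.6 to 8092 and 2923 to 4832. Lpl (-1.35) and Fabp4 (-1.01) were called lower, and Plin1, below the filter, held 64 and 4 reads. Pparg (-0.61), Adipoq (0.03) and Cebpa (0.30) were not called. The part of these other cell types in the levels of Il4, Il7r, Il1rl1 and the IL-12 receptor chains was not tested.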

How the data were processed

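Polyadenylated RNA was read as 100 bp paired ends from a stranded kit, per the labels. Alignment and counting tools listed in the submitters' processing notes are HISAT2 2.1.1, HTSeq 0.13.5 and DESeq2, with mouse build GRCm39. The strand setting of the counting is not given in the sources used here. From these, the authors deposited a signal, normalized counts per gene. In every library 100% of values were whole multiples of 1 step (tolerance 0.01 read), so whole reads were recovered; pairs of libraries within a genotype differed beyond sampling noise (chi-square divided by its degrees of freedom 8.59 or more), and none was a repeat. The lowest gene total was 11 reads, and genes under it are not analysed here: 35 of 83 annotated symbols matching the rule had no row.

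Because the values were normalized, log2(normalized count + 1) was fitted with limma-trend (limma 3.58.1 under R 4.3.3), without covariates, on genes with at least 10 in at least 4 of 8 libraries. A fold change is the Lgr6-null mean less the wild-type mean of those log2 values, a scale that understates changes of low genes. edgeR 4.0.16, DESeq2 1.42.0, other pseudocounts (0.5 and 5), filters, scaling, the block and each library left out were alternatives. The fit was also run on simulated data. The outcome of that run is not given here, and no statement above rests on it. Genes named were every called, non-overlapping or marker member (Il33, Il7r, Il6, Il1rl1), other members with a mean of at least 100, and up to 6 called genes of each companion list; further members were added for completeness after values were seen. Members and lists were chosen with earlier results of these data known. Symbols came from a GENCODE annotation of GRCm38 (19361 identifiers matched, 99 did not), and columns were assigned to genotypes only.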

Additional observations from a re-analysis of the deposited data

Results flagged for a closer look

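In 4 of 80 groups of 4 libraries (40 tested members in 2 genotypes) 1 library stood apart from the other 3 by Dixon's criterion, which chance meets in about 1 of 20 groups. Il33 was at 1.86 in wild-type M0 and at 0 in the other wild-type libraries. In such a group any value above 0 meets the criterion, so that rate does not apply to it. Il12rb2 was at 4.18 in Lgr6-null M0, below the other Lgr6-null libraries. Il34 was at 163 in wild-type M1, below the other wild-type libraries. Il3ra was at 448 in Lgr6-null M0, below the other Lgr6-null libraries.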

How the results depend on the processing

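Over the alternatives 6 to 13 interleukin genes were called higher and 1 to 3 lower, and no called member changed sign in any alternative run. With libraries scaled to the same total, 2886 genes were called higher and 1281 lower, which moved the median over all tested genes from 0.00 to 0.09. With a mean of at least 50 required, 1 interleukin gene was called lower, since Il11 and Il12rb1 fall under that mean. Leaving out single libraries gave 1321 to 1839 genes higher, 1375 to 1769 lower, 9 to 13 interleukin genes higher and 3 lower. The numbers in the column names did not pair the libraries: over 14294 genes the deviations of same-numbered libraries correlated at -0.01 (M0), -0.12 (M2) and 0.03 (M3), and 0 of 6 libraries correlated best with their own number. With the replicate block by column number, 937 genes were called higher and 1021 lower, with 6 interleukin genes higher and 3 lower; Il10rb (adjusted p 0.0831), Il16 (0.0683), Il17rd (0.150), Il1b (0.0652), Il1rl1 (0.0704) and Il4 (0.163) were not called, nor were the companion genes Ebi3, Lif, Osm, Socs6, Tyk2 and Socs5. Calls that depended on single libraries are given beside their genes. Sign changes were limited to members that were not called. Il6st was at 0.0752 scaled to the same total and at 0.00568 in edgeR, and ran from -0.0908 to 0.11 with a library left out. Il17d was at -0.0535 with the block. With a library left out Il17d ran from -0.0565 to 0.20, Il2rb from -1.08 to 0.0549, Il34 from -0.0397 to 0.13 and Il13ra1 from -0.0509 to 0.11. Of the members below the filter, Il17rb ran from -0.68 to 0.0747, Il1a from -0.20 to 0.59 and Il17c from -0.52 to 0.31. The cause was not tested. The 8 members below the filter held 13 to 78 reads in all, which limits the precision of their values.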
